A study of Saccharomyces cerevisiae and Saccharomyces paradoxus with 173 samples.

Results

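The large subunit ribosomal protein genes of budding yeast were followed in cultures released from a pheromone arrest. They were taken by standard name: RPL with a number and an optional A or B, plus RPP0, RPP1A, RPP1B, RPP2A and RPP2B. The rule found 81 genes, and all 81 were measured among the 6172 genes of the deposited table. They form 35 pairs of A and B copies and 11 single-copy genes. The series holds 15 to 18 samples of each of 10 natural strains. Of these YPS2055, YPS2060, YPS2066, YPS2067, YPS2073, YPS2079, YPS3060, YPS3137 and YPS183 are Saccharomyces cerevisiae by their labels, and the label of YPS3395 is S. paradoxus. One culture of each strain, grown in synthetic dextrose minimal medium, was arrested at the end of G1 by alpha factor, a mating pheromone, washed free of it, split over 18 flasks and kept at 18 °C, and RNA was taken at up to 18 times from 0 to 345 min. Every array also carried a common reference, RNA of unsynchronised YPS183 cells in log phase grown at 30 °C in the rich medium YPD, so each value is a log2 ratio of the sample over that reference (the direction is likely, not stated). The labels give no genotype beyond the strain.

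Each large ribosomal subunit holds ribosomal RNA, which forms the peptidyl transferase centre, and proteins that lie mostly on the outer surface, with some lining the exit tunnel and a few reaching towards that centre. A stalk of acidic P proteins anchored by P0, the product of RPP0, recruits the elongation factors. In yeast most of these proteins are encoded by a pair of nearly identical genes named A and B, whose products are interchangeable or nearly so, and the genes are known for being transcribed together through the factors Rap1, Fhl1, Ifh1 and Sfp1 in response to nutrients and growth rate. Because RNA of a whole culture was hybridised, more cells in a given state and more RNA per cell cannot be told apart.

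Before the results, some samples stand apart. The labels give the print year of the arrays, and 40 samples had at least 1 array printed in 2005 or 2006: 17 of the 18 samples of YPS2073, 9 of 18 of YPS3060, 9 of 16 of YPS3137 and 5 of 18 of YPS183. The others had 2007 prints, except 1 array of YPS2079 at 111 min whose print year was not read from the labels. Samples rested on 1 to 5 arrays, 377 in all. The times 0, 48, 87, 135, 176, 218, 251, 284 and 325 min are called set A and the times between them set B, because in YPS3060 and YPS3137 the older prints fall on set A alone. The median over the 81 genes of the SD across a strain's samples was 0.68 in YPS2073 and 0.62 in YPS3395, against 0.32 to 0.47 in the other strains. As a check of the arrest, 12 of 14 pheromone-induced genes were lower at 48 min than at 0 min and 0 were higher (limma, median -1.14). Over all 6172 genes 126 were lower and 110 higher. There was 1 culture per strain, so a p-value for a single strain rests on the scatter of samples around smooth curves, not on the spread between cultures. That scatter was estimated once per gene over all strains, for levels, time courses and copy A minus copy B alike. It is thus not the strain's own, and the SE given for noisier strains such as YPS2073 draws on quieter ones too.

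The first question was how the level of these genes differed between strains. For each strain the fitted mean over the 12 sampling times shared by all strains was set against the other S. cerevisiae strains' mean, with limma and p-values adjusted over all 6172 genes. In YPS2073, 74 of 81 genes were higher and 0 were lower, where 16.5% of all genes were higher and 16.4% were lower. The median difference over the 81 genes was 0.92 on the log2 scale, while the medians over all genes lay between -0.01 and 0.01 in every strain, and 36 of them were higher by at least 1. In YPS3395, 51 genes were higher and 10 were lower, against 20.2% and 19.4% of all genes, with a median difference of 0.51. In YPS2067, 0 were higher and 39 were lower, against 3.76% and 3.82% of all genes, with a median of -0.34. In YPS183, 0 were higher and 33 were lower, against 15.7% and 15.9% of all genes, with a median of -0.25. Of the 33 and the 39, 0 were lower by 1 or more. At an unadjusted p under 0.05 limma had 1 member lower in YPS2073 and 1 higher in each of YPS2067 and YPS183.

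In the other strains the differences were smaller. In YPS2055, 2 genes were higher and 0 lower (3.34% and 4.8% of all genes), with 0 lower at an unadjusted p under 0.05 as well. In YPS2060, 0 were higher and 6 lower (3.11% and 3.13%), with 1 higher at an unadjusted p under 0.05. In YPS2066, 2 were higher and 1 lower (7.79% and 7.55%). In YPS2079, 1 was higher and 2 were lower (5.15% and 6.69%), shares below those of all genes. In YPS3060, 1 was higher and 15 lower (6.8% and 6.37%), and in YPS3137, 5 were higher and 13 lower (16% and 16.8%). The median differences were 0.14 in YPS2055, -0.12 in YPS2060, -0.03 in YPS2066, -0.10 in YPS2079, -0.22 in YPS3060 and 0.01 in YPS3137. Since each strain is set against the others, the high level in YPS2073 enters the comparison of every other S. cerevisiae strain. On 2007 prints alone, which leaves out YPS2073, YPS3060 and YPS3137, 30 genes were lower in YPS2067 (median -0.27) and 21 in YPS183 (median -0.14), by comparison with fewer strains.

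**Figure D1:**
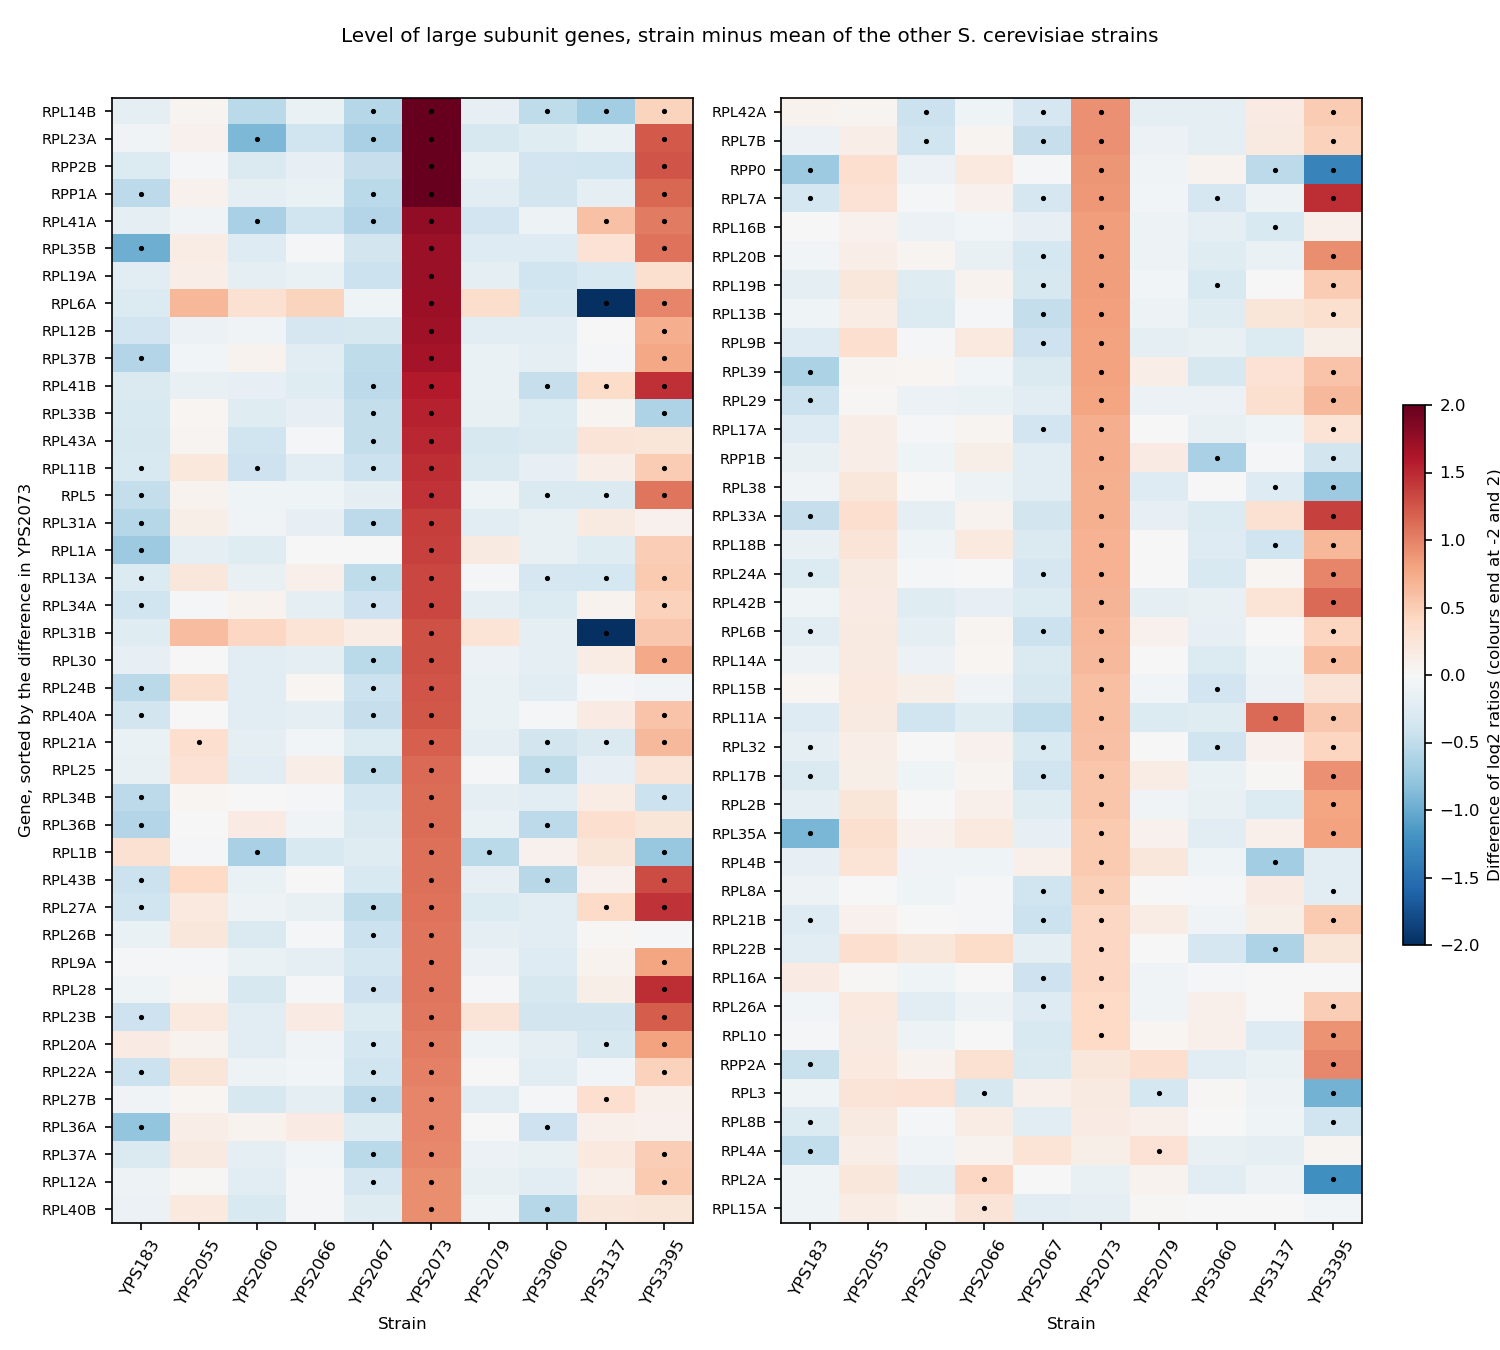
Heat map of the genes (rows) in 10 strains (columns): colour gives the fitted level of the strain minus the other S. cerevisiae strains' mean on the log2 scale, and a dot marks a limma adjusted p below 0.05. The column of YPS2073 is red for all genes shown but RPL2A and RPL15A, and that of YPS3395 holds both the red cells of RPL7A and RPL28 and the blue cells of RPL2A, RPL3 and RPP0.

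In YPS2073 the median of the 81 genes was above 0 in 18 of 18 samples. The median of the 81 genes per sample was lowest at 0.44 (87 min), had a median of 0.96 over 18 samples and was highest at 1.93 (345 min). In the other 9 strains the sample medians ran between -0.74 and 1.37, and YPS2073 was the highest of all strains sampled at 11 of 18 times. At 87 min it was at 0.44, below YPS2055 (1.08), YPS3395 (0.63) and YPS2060 (0.47). For 45 of the 81 genes YPS2073 lay above every other S. cerevisiae strain at most of its times. The same share over all genes was not computed, so the 45 is a description only.

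RPL14B, one copy of the gene for a protein of the outer surface, ranged over 1.28, 2.25 and 7.09 (lowest, median and highest of 18 samples) in YPS2073, against -0.76, 0.56 and 1.75 in 137 samples of the other S. cerevisiae strains. It was above all of these strains at 18 of 18 times, and the fitted difference was 2.76 ± 0.17 (SE, limma adjusted p = 3.31e-26). RPL23A, a protein at the face that meets the small subunit, ranged over 0.32, 2.77 and 6.59 in YPS2073, against -0.87, 0.56 and 1.80 in the others, and was above them at 14 of 18 times, by 2.63 ± 0.21. The ranges overlapped for both genes, by less for RPL14B.

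A pair of stalk genes came next. RPP2B stood at -0.04, 2.61 and 5.18 in YPS2073, against -0.41, 0.58 and 1.65 in the others, a difference of 2.18 ± 0.17. RPP1A stood at 0.96, 2.52 and 4.41 in YPS2073, against -0.39, 0.64 and 1.53, a difference of 2.06 ± 0.14, and both were above all other S. cerevisiae strains at 15 of 18 times. The other stalk genes differed less. Its anchor RPP0 was 0.89 ± 0.20 higher and RPP1B 0.73 ± 0.12 higher (limma adjusted p = 0.000252 and 7.09e-07), while RPP2A differed by 0.22 ± 0.13 (limma adjusted p = 0.195).

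RPL41A and RPL41B encode one of the shortest known proteins. RPL41A was 1.77 ± 0.19 higher in YPS2073 and RPL41B 1.58 ± 0.14 higher, with sample medians of 2.58 and 2.11 there, against 1.02 and 0.77 in the others. The 12 largest differences also held RPL35B (1.73 ± 0.15), at the tunnel exit, and RPL19A (1.72 ± 0.15). The rest of the 12 were RPL6A (1.71), RPL12B of the stalk base (1.70), RPL37B (1.66) and RPL33B (1.53). RPL5, whose product carries the 5S ribosomal RNA into the subunit together with that of RPL11, was 1.45 ± 0.09 higher. Both copies of RPL11 were higher as well, RPL11B by 1.47 ± 0.12 and RPL11A by 0.61 ± 0.17.

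In YPS2073, 7 genes did not pass. RPL3, a core protein near the peptidyl transferase centre, stood at -0.47, -0.04 and 1.11 in YPS2073, against -0.93, -0.10 and 0.99 in the others, a difference of 0.18 ± 0.11 (limma adjusted p = 0.203). RPL2A stood at -1.68, -0.18 and 0.27 in YPS2073, against -2.25, -0.16 and 0.58, a difference of -0.15 ± 0.09, and RPL15A differed by -0.18 ± 0.09. RPL4A (0.12), RPL8B (0.16) and RPP2A (0.22) were also among the 7. The groups overlapped over nearly their whole ranges for RPL3 and RPL2A.

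In YPS2073 the strain and the older array prints cannot be told apart over most of the course. Its only sample on 2007 prints alone, at 345 min, had the highest median of the strain, and the median gene was 0.78 lower in its 17 samples with older prints. That single sample is also the last time and of set B, and part of the 17 also had a 2007 array. Print, time and sampling set cannot be told apart in this difference. Within the other strains that have both kinds of sample, the median over the 81 genes of older minus 2007 prints was 0.0042 in YPS183 (5 and 13 samples), -0.20 in YPS3060 (9 and 9) and -0.02 in YPS3137 (9 and 7). Single genes ran from -0.61 to 0.52, from -1.38 to 0.99 and from -5.55 to 1.99, in the order given. The older prints of these strains fall on set A alone, so these differences also hold those between the sets. The sampling sets differed too. The sample medians of YPS2073 ran from 0.82 to 1.93 in set B and from 0.44 to 1.25 in set A, and the median difference from the other strains was 1.45 in set B fitted alone. After quantile normalization of all genes between samples it was 0.66, with 74 genes higher.

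YPS3395 differed from the S. cerevisiae strains in both directions. It is the only S. paradoxus strain, and the reference RNA is S. cerevisiae. A difference in RNA level and one in binding to the probes cannot be told apart for it. RPL7A stood at 1.33, 1.81 and 2.91 over 18 samples of YPS3395, against -0.53, 0.41 and 2.69 over 155 samples of the 9 S. cerevisiae strains, and lay above all of them at 15 of 18 times. The fitted difference was 1.48 ± 0.11 (SE, limma adjusted p = 4.16e-21). RPL28, the gene in which resistance to cycloheximide arises, was 1.48 ± 0.14 higher, RPL41B 1.46 ± 0.14, RPL27A 1.45 ± 0.13, RPL33A 1.37 ± 0.14 and RPL5 1.07 ± 0.09. RPL27A was above all S. cerevisiae strains at 13 times, RPL28 and RPL33A at 11 and RPL41B at 9. The late-joining RPL10 was 0.90 ± 0.12 higher.

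RPL2A, a core protein close to the catalytic centre, stood at -2.46, -1.21 and -0.29 in YPS3395, against -2.25, -0.16 and 0.58 in the S. cerevisiae strains, and was below all of them at 15 of 18 times. Its difference was -1.23 ± 0.09 (SE, limma adjusted p = 9.25e-21). RPL3 stood at -2.06, -1.01 and 0.50 in YPS3395, against -0.93, -0.10 and 1.11, below all S. cerevisiae strains at 14 times, with a difference of -0.94 ± 0.11. Both genes lay below the S. cerevisiae strains through most of the course. RPL1B (-0.76 ± 0.15) and RPL38 (-0.73 ± 0.10) were also lower. Of the stalk genes, RPP1A (1.14), RPP2B (1.26) and RPP2A (0.96) were higher, and RPP1B (-0.36) and RPP0 (-1.34) were lower.

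RPP0 in YPS3395 jumped between neighbouring samples. It was at 2.27 at 87 min, -4.31 at 111 min, 0.19 at 135 min, 1.48 at 176 min, -3.40 at 218 min, -4.77 at 251 min and 0.34 at 325 min, all on 2007 prints. In 155 samples of the other strains RPP0 ran from -1.73 to 2.25, with a median of 0.44. The fitted difference was -1.34 ± 0.20, with 9 times below all S. cerevisiae strains and 3 above them.

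YPS2067 and YPS183 had the most genes called lower. YPS3060, with 15 lower, had a median fitted level of 0.07, against 0.09 in YPS183 and -0.03 in YPS2067. The median of the sample medians was 0.20 in YPS2067, above the 0.06 of YPS183 and the 0.09 of YPS3060. RPL35A stood at -1.01, -0.46 and 0.09 over 18 samples of YPS183, against -0.63, 0.52 and 2.24 over 137 samples of the other S. cerevisiae strains, below all of them at 14 times. The difference was -0.92 ± 0.12 (limma adjusted p = 4.63e-10), and its copy RPL35B differed by -0.98 ± 0.15. RPL36A (-0.79 ± 0.13), RPP0 (-0.73 ± 0.20), RPL1A (-0.73 ± 0.24) and RPL5 (-0.48) were lower as well. The reference RNA is also of YPS183, so its own ratios set growth conditions of 1 strain against each other.

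In YPS2067 the largest differences were those of RPL23A (-0.65 ± 0.21), RPL41A (-0.59 ± 0.19), RPL14B (-0.58 ± 0.17) and RPP1A (-0.54 ± 0.14). Their limma adjusted p were 0.0366, 0.046, 0.0225 and 0.00812, in the order given. YPS2073, the highest strain for each of these genes, is part of the mean that YPS2067 is set against. Over the 12 shared times RPL23A averaged 0.38 in YPS2067, 3.30 in YPS2073 and 0.69 in the median of the 10 strains. These means were 0.76, 2.71 and 1.22 for RPL41A, 0.33, 3.22 and 0.61 for RPL14B, and 0.34, 2.62 and 0.62 for RPP1A. RPL30, whose product binds its own transcript to hold back splicing, was 0.54 lower and RPL25, at the tunnel exit, was 0.50 lower. RPL41A ranged over -0.88, 0.95 and 1.76 in YPS2067, against -0.45, 1.15 and 4.38 in the other S. cerevisiae strains, so most of its samples lay within the range of the rest. Without the 325 min sample of all strains, 12 genes were lower in YPS2067 in place of 39. Set against YPS183 alone, 2 were lower.

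Single genes stood out in other strains. In YPS2060, RPL23A was 0.90 ± 0.22 lower and RPL1B, of the stalk that guides transfer RNA out, 0.64 ± 0.16 lower. In YPS3060, RPP1B was 0.66 ± 0.12 lower and RPL40B, made as a fusion with ubiquitin, 0.57 ± 0.14 lower (limma adjusted p = 0.00284). In YPS3060, RPP1B averaged -1.20 in samples with older prints and -0.02 in the others, and RPL40B averaged -0.56 and 0.05. In YPS2066 RPL2A was 0.42 ± 0.09 higher and RPL3 0.33 ± 0.11 lower, in YPS2079 RPL1B was 0.53 ± 0.15 lower and RPL3 0.35 ± 0.11 lower, and in YPS2055 RPL21A was 0.34 higher.

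In YPS3137 the 3 largest differences went with the sampling set, and there set A has the older prints and set B the 2007 prints, so sampling set and print cannot be told apart. RPL6A, of the outer surface, was at -0.81 at 0 min, -3.30 at 48 min and between -4.87 and -6.31 at the later times of set A, whose arrays included or were 2006 prints, and between 0.19 and 1.17 at its 7 set B times on 2007 prints. RPL31B, near the tunnel exit, was at -0.29 at 0 min, -3.27 at 48 min and between -4.65 and -6.97 at later set A times, and between -0.37 and 0.35 in set B. RPL11A ran the other way, from 0.76 to 4.92 in set A and from -0.28 to 0.68 in set B. The 0 min sample had 2 arrays of 2006 and 2 of 2007, and the other 8 set A samples had 2006 arrays only. Over all times RPL6A differed from the other S. cerevisiae strains by -2.74 ± 0.36, RPL31B by -2.57 ± 0.32 and RPL11A by 1.13 ± 0.17, and within set B the first 2 of these differences were 0.08 and 0.05. RPL6A in YPS3060, whose set A samples also had older prints, averaged -0.62 in them and 0.49 in its 2007-print samples. In YPS183 0 of 81 genes differed by 1 or more between its 5 samples with older prints and its 13 others.

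**Figure D2:**
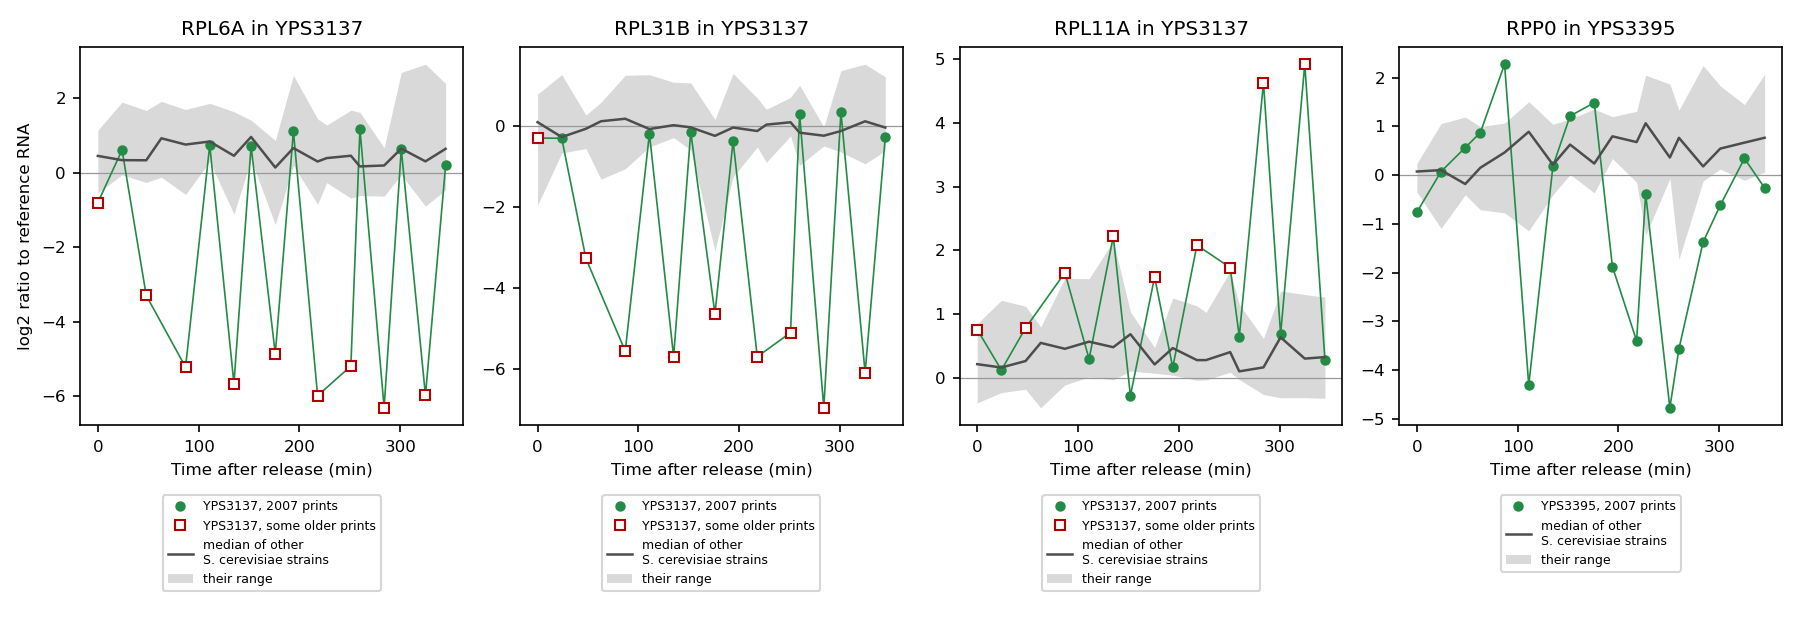
Log2 ratios to the reference RNA against time after release for RPL6A, RPL31B and RPL11A in YPS3137 and RPP0 in YPS3395, with open squares for samples with some older prints, filled circles for 2007 prints, and the median (line) and range (grey) of the other S. cerevisiae strains. RPL6A and RPL31B of YPS3137 drop to as low as -6.31 and -6.97 in squares while the circles stay in the grey band, and RPP0 of YPS3395 runs from 2.27 to -4.77 on circles alone.

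The second question was whether the genes varied over the hours after release. Each strain's spline of time was tested with limma over all 6172 genes. Members that varied numbered 20 in YPS2073 (8.07% of all genes varied) and 21 in YPS3395 (6.29%). YPS2067 had 5 (10.3%), YPS2066 had 2 (9.22%) and YPS3137 had 1 (1.78%). In YPS183 (3.9%), YPS2055 (3.97%), YPS2060 (0.194%), YPS2079 (0.583%) and YPS3060 (1.8%) 0 members passed. At an unadjusted p under 0.05 limma had 0, 11, 0, 1 and 2 members in these 5 strains, in the order given. The scatter is estimated once per gene over all strains, whose scatter differs. With 1 weight per strain, chosen after seeing the data, 61 members varied in YPS2067, 40 in YPS2055, 20 in YPS3395 and 8 in YPS2073.

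**Figure D3:**
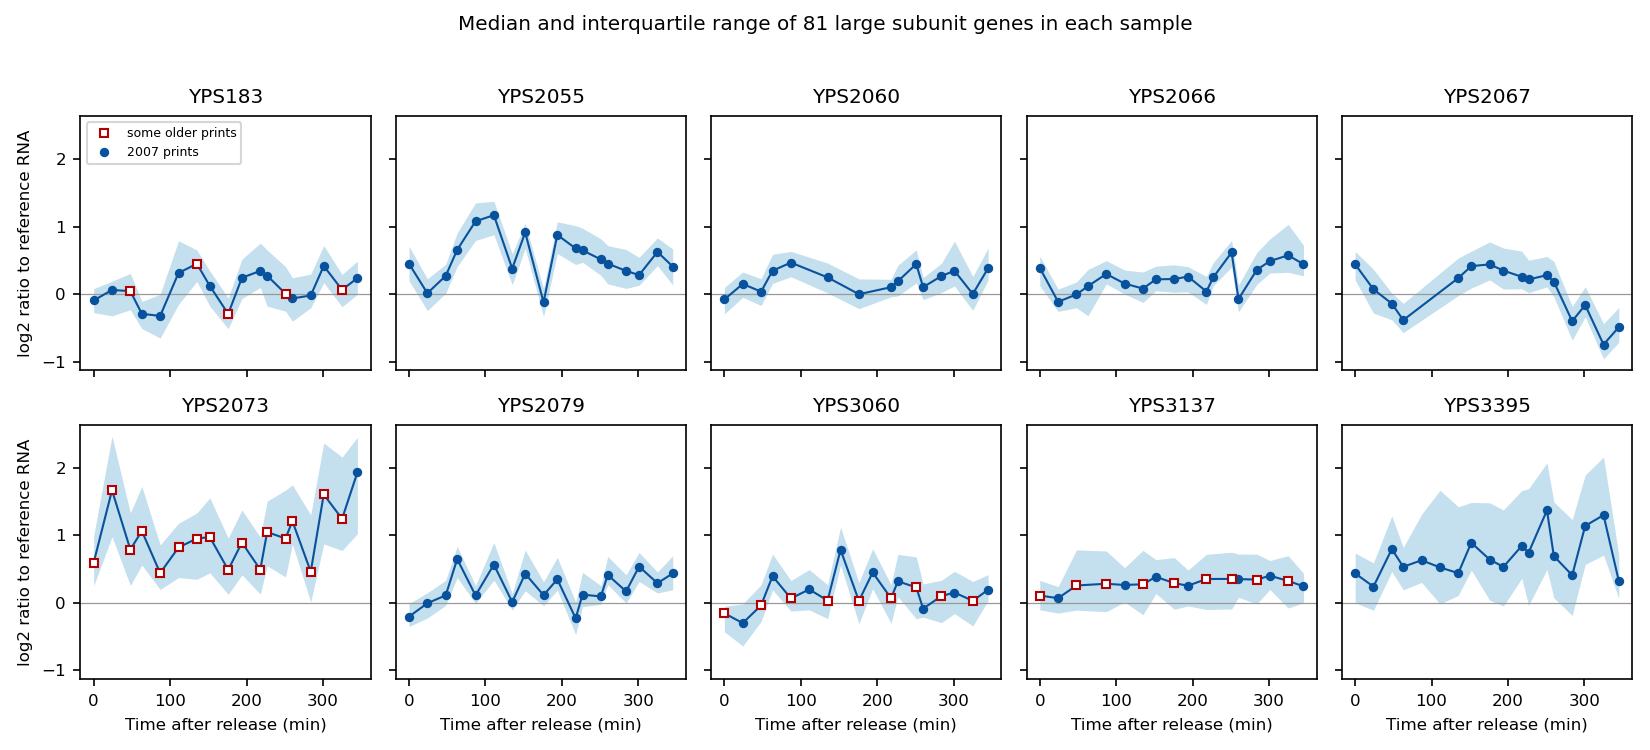
Median (line and points) and interquartile range (band) over the 81 genes of the log2 ratio to the reference RNA in each sample, against time after release, 1 panel per strain; open squares are samples with some older prints. YPS2055 peaks at 1.17 at 111 min, YPS2067 ends at -0.74 and -0.49, YPS2073 lies above 0 throughout, and YPS2079 moves up and down between neighbouring times.

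In YPS2067 the sample median of the 81 genes was 0.45 at 0 min, 0.07 at 24 min, -0.14 at 48 min and -0.38 at 63 min. It was between 0.19 and 0.44 at the 8 times from 135 to 260 min, and -0.40, -0.16, -0.74 and -0.49 at 284, 301, 325 and 345 min. The median gene was thus low at 48 and 63 min and again from 284 min on. RPL32 was at 0.39 at 0 min, -0.62 at 63 min, 0.39 at 251 min and -0.91 at 325 min, a fitted range of 1.29 (limma adjusted p = 0.00499). RPL26A (1.42), RPL13A (1.53), RPL27B (1.75) and RPL38 (1.44) were the others that passed. Of the 81 fitted curves 24 were lowest at 325 min and 32 at 345 min.

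In YPS2055 the sample median was 0.45 at 0 min, 0.02 at 24 min, 0.27 at 48 min, 0.66 at 63 min, 1.08 at 87 min, 1.17 at 111 min and 0.38 at 135 min. The fitted curves of 64 of the 81 genes were highest at 111 min, though 0 members passed the test over time in this strain. The share over all genes was not computed. The samples at 135 and 176 min, both of set A, lay lower than their neighbours, at 0.38 and -0.12, against 0.92 at 152 min and 0.88 at 194 min. In YPS2079 and YPS3060 set B samples were mostly the higher ones: the median of the sample medians was 0.43 in set B and 0.11 in set A in YPS2079, which had no array labelled as an older print, and 0.20 and 0.04 in YPS3060.

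Among the members varying in YPS2073, RPL5 was between 0.31 and 2.68 at the first 17 times and at 4.76 at 345 min (fitted range 3.78, limma adjusted p = 1.99e-11). RPL14B was at 4.09 at 24 min, between 1.32 and 2.80 from 48 to 251 min, 7.09 at 284 min and 6.11 at 325 min. The fitted curves of 54 genes were highest at 345 min, the last time and the sample on 2007 prints alone. The share over all genes was not computed. After quantile normalization 4 members varied in place of 20. In YPS3395 RPL10 varied with a fitted range of 2.63 (limma adjusted p = 4.35e-07), RPL28 with 2.99 and RPP0 with 5.16. Members that passed in 2 strains included RPL20A, RPL12A, RPL9A, RPL38, RPL9B and RPL27B, and 0 members passed in more.

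The first interval after release was compared over the 10 strains as a block design. The 0 min samples are of set A and the 24 min samples of set B, so time and sampling set cannot be told apart in it. Between 24 and 0 min 0 of 81 genes passed limma, where 4.16% of all genes did, and 2 were higher and 3 lower at an unadjusted p under 0.05. The median change was -0.02. By strain the median of the 81 genes changed by 0.87 in YPS2073, by 0.23 in YPS2060, 0.20 in YPS2079 and 0.10 in YPS183, and by -0.49 to -0.09 in the other 6 strains. RPL29, a protein that cells can live without, was at -0.99, -0.46 and 2.10 at 24 min (lowest, median and highest of 10 strains), against -0.28, 0.36 and 1.36 at 0 min. In 9 of 10 strains its 24 min value was the lower one, in YPS2073 it was higher by 1.29, and the mean change was -0.58 ± 0.21 (SE, limma adjusted p = 0.138). Between 48 and 0 min, within set A, the mean change of RPL29 was -0.22 ± 0.20 (limma adjusted p = 0.606). RPL36B (-0.43 ± 0.14) and RPL39 (-0.38 ± 0.16), a short protein of the exit tunnel, showed the same pattern, lower in 9 strains and 0.84 and 1.13 higher in YPS2073. Without YPS2073, 9 members were lower, RPL29 by 0.79 (limma adjusted p = 0.00365) and RPL41A by 0.89 (limma adjusted p = 0.00465). How many of all genes were called without YPS2073 was not computed.

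RPL23A (0.72 ± 0.33), RPL14B (0.64 ± 0.25), RPL1A (0.54 ± 0.34), RPL4B (0.41 ± 0.28), RPL23B (0.32 ± 0.24) and RPP2B (0.31 ± 0.23) had the highest mean changes at 24 min, and 0 of them passed. YPS2073 held the highest change for each of them, 3.79 for RPL23A and 3.58 for RPL1A. Between 48 and 0 min, both of set A, 0 members passed, where 3.82% of all genes did, with 2 at an unadjusted p under 0.05 and a median change of 0.04. RPL21B had a mean change of 0.33 ± 0.11, positive in 9 of 10 strains (limma adjusted p = 0.13). The lowest mean change was that of RPL37B (-0.31 ± 0.15). Both comparisons use the same 0 min samples.

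Late times were set against early ones by the mean of 325 and 345 min and the mean of 0 and 24 min in each strain. Of 81 genes 9 were higher late and 0 were lower, where 4.89% of all genes were higher and 9.27% changed in either direction, and 26 were higher at an unadjusted p under 0.05. The median change was 0.26, against -0.01 over all genes. RPL8B stood at -0.08, 0.19 and 0.66 late (lowest, median and highest of 10 strains), against -0.80, -0.37 and 0.06 early, and was higher in 10 of 10 strains, by 0.63 ± 0.08 (SE, limma adjusted p = 0.00166). RPP0 stood at -0.01, 0.64 and 1.76 late, against -0.43, -0.01 and 0.57 early, higher in 10 of 10 strains by 0.67 ± 0.13 (limma adjusted p = 0.00801). RPL9B (0.56 ± 0.13), RPL24B (0.50 ± 0.14), which joins the subunit late in the cytoplasm, and RPL8A (0.38 ± 0.10) and RPL2B (0.42 ± 0.08) were higher in 9 strains, RPL12A (0.42 ± 0.10) in 8 and RPL22B (0.44 ± 0.13) in 7.

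YPS2067 went the other way. The median change of the 81 genes was -0.87 there, with 4 of 81 genes higher late, and between 0.17 and 0.51 in the other 9 strains, with 56 to 76 genes higher. In the fit over all samples, the change in YPS2067 was tested against the mean change of the other S. cerevisiae strains, a comparison added after seeing the data. It was lower for 18 genes, where 1.9% of all genes were lower, and for 59 at an unadjusted p under 0.05. RPL30 changed by -1.29 in YPS2067 and by 0.59 in the others, a difference of -1.88 ± 0.45 (SE, limma adjusted p = 0.00775). The difference was -1.39 ± 0.27 for RPL32 (limma adjusted p = 0.00107), -1.62 ± 0.35 for RPL38 and -1.63 ± 0.47 for RPL39. In the same test 2 members were higher in YPS2073 (0.421% of all genes), 1 was lower in YPS3395 (0.13%) and 0 passed in the other strains, where at most 1 had an unadjusted p under 0.05. Each strain was left out in turn, and without YPS2067 35 members were higher late in place of 9. The share of all genes called in that run was not computed.

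**Figure D4:**
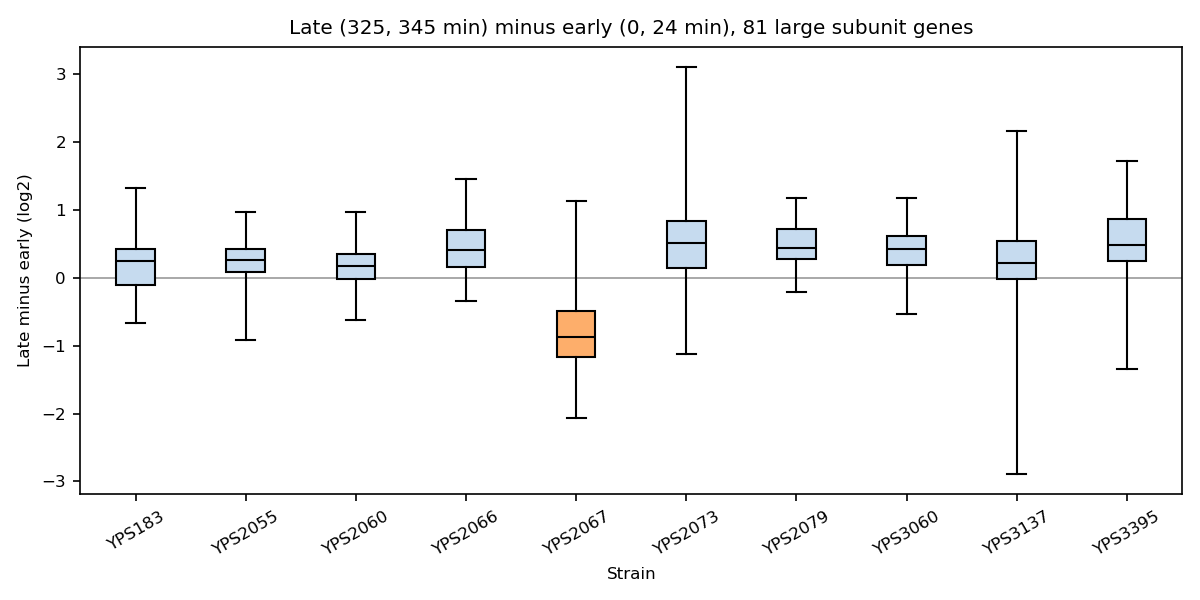
Late (mean of 325 and 345 min) minus early (mean of 0 and 24 min) on the log2 scale for the 81 genes in each strain: boxes give the quartiles and median, whiskers the lowest and highest gene. YPS2067, in orange, has a median of -0.87, and the medians of the other strains lie between 0.17 and 0.51.

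Stress-induced genes were followed beside this. The median of 18 of them changed by 0.44 between early and late in YPS2067, by 0.90 in YPS183, where the median of the 81 genes changed by 0.24, and by -0.18 to 0.24 in the other strains. Their part in the change of the ribosomal protein genes was not tested. Of 38 factors of large subunit assembly 9 were higher and 0 lower at 24 min than at 0 min (29 higher at an unadjusted p under 0.05, median 0.40). Over all 6172 genes 151 were higher and 106 lower, in a comparison of set B with set A. Late against early 0 assembly factors were higher and 15 lower (median -0.29), where 302 of all genes were higher and 270 lower. The median of the assembly list was lower late in 9 of 10 strains, by 0.51 in YPS2067, and was 0.05 in YPS2073.

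Set against the reference RNA, over 1 mean per strain, 35 of 81 genes were higher and 1 was lower, where 26.2% and 22.9% of all genes were. The median level was 0.28, against 0.01 over all genes, and 70 of the 81 genes had a mean above 0. RPL41A averaged between 0.72 in YPS2060 and 2.71 in YPS2073, above 0 in 10 of 10 strains, with a mean of 1.44 ± 0.20 (SE over strains, limma adjusted p = 0.000207). RPL1A averaged between 0.90 in YPS183 and 2.38 in YPS2073, with a mean of 1.43 ± 0.11. RPL41B (1.07), RPL23A (0.98), RPP1A (0.90), RPP2B (0.87), RPL33A (0.84) and RPL14B (0.81) came next, each above 0 in all 10 strains. The SE covers strains and not the reference, which is 1 RNA.

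RPL2A was the 1 gene below the reference, at -0.34 ± 0.13 (limma adjusted p = 0.0476), with strain means between -1.51 in YPS3395 and 0.17 in YPS2066. Without YPS3395 its mean was -0.22, with limma adjusted p = 0.0156. The call was lost when any of 7 other strains was left out, the highest adjusted p being 0.0846. RPL31B also averaged -0.34, with -3.14 in YPS3137 and between -0.67 and 0.80 elsewhere (limma adjusted p = 0.377). RPL3 averaged -0.22 ± 0.11, RPP1B -0.18 and RPL22B -0.14, and these did not pass. RPL34A (-0.11), RPL4B (-0.08) and RPL17B (-0.04) complete the 8 lowest.

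The last question was whether the A and B copies of a pair behaved alike. The quantity is the log2 ratio of copy A minus that of copy B, so it is the A to B balance of the sample over that of the reference and does not say which copy has more RNA. A copy said to stand above the other has the higher ratio to the reference. Probes of nearly identical copies may read both, which was not tested. Against the reference 9 of 35 pairs passed limma, where 34.4% of all 61 A and B pairs in the table did, a lower share. RPP1A stood above RPP1B in 10 of 10 strains, by 0.47 in YPS2079 to 2.46 in YPS3395, a mean of 1.08 ± 0.19 (SE, limma adjusted p = 0.00101). RPL1A stood above RPL1B in 9 of 10 strains, by 0.63 ± 0.15, and RPL4A above RPL4B in 9, by 0.54 ± 0.10. RPL41 (0.36) also had the higher ratio in copy A. RPP2A stood below RPP2B in 10 of 10 strains, by a mean of -0.65 ± 0.16 with strain means from -2.15 in YPS2073 to -0.16 in YPS2079. RPL14 (-0.58 ± 0.20), RPL34 (-0.36 ± 0.10) and RPL12 (-0.27 ± 0.09) also had the higher ratio in copy B. For RPL14 the mean was -0.36 without YPS2073, whose value was -2.58.

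Between strains the balance of the copies differed in few pairs outside YPS2073, YPS3395 and YPS3137. It differed from the other S. cerevisiae strains in 26 of 35 pairs in YPS2073, where 70.5% of all 61 pairs did, and in 18 pairs in YPS3395, where 62.3% did. In YPS3137 9 pairs differed (24.6% of all pairs), in YPS2060 3 (13.1%), in YPS3060 3 (8.2%), in YPS2079 2 (8.2%) and in YPS183 1 (4.92%). In YPS2055 (0% of all pairs), YPS2066 (0%) and YPS2067 (1.64%) 0 of the 35 passed limma, with 3, 9 and 2 pairs at an unadjusted p under 0.05, in the order given. The counts in YPS2073 and YPS3395 are near or below the shares of all pairs.

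In YPS2073 the copies of these pairs differed by unequal amounts. RPL14A minus RPL14B stood at -6.93, -1.88 and 0.03 over its 18 samples and was above 0 in 1 of them. The fitted balance was -2.49, against -0.38 in the other S. cerevisiae strains, a difference of -2.11 ± 0.17 (SE). RPP2A minus RPP2B was -2.42, against -0.47, and RPL23A minus RPL23B was 1.56, against -0.02. RPL35A minus RPL35B was below 0 in 18 of 18 samples. In each of these 4 pairs the copy with the smaller rise was still higher in YPS2073 than in the other strains or, for RPP2A, did not pass.

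In YPS3395 RPL33A stood above RPL33B in 18 of 18 samples, at 1.13, 2.13 and 3.67, with a fitted balance of 2.27, against 0.28 in the S. cerevisiae strains, a difference of 1.99 ± 0.10. RPL2A stood below RPL2B in 18 of 18 samples, at -4.61, -2.25 and -0.09, with a balance of -2.33, against -0.31. RPP1 (2.38, against 0.87), RPL27 (1.51, against 0.17), RPL24 (0.83, against -0.21) and RPL7 (1.28, against 0.25) each had a balance above 0 in all 18 samples. RPL34A minus RPL34B was 0.41 in YPS3395, against -0.48, the only strain mean above 0 for this pair. For these balances too, RNA level and binding to the probes cannot be told apart in YPS3395. In YPS183 RPL1A minus RPL1B was -0.32, against 0.70 in the other S. cerevisiae strains, above 0 in 3 of 18 samples.

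In YPS3137 the largest pair differences were RPL6 (-2.75 ± 0.34), RPL31 (2.74 ± 0.36) and RPL11 (0.99 ± 0.17), which hold the genes whose values differed between its sampling sets, and so between its array prints.

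**Figure D5:**
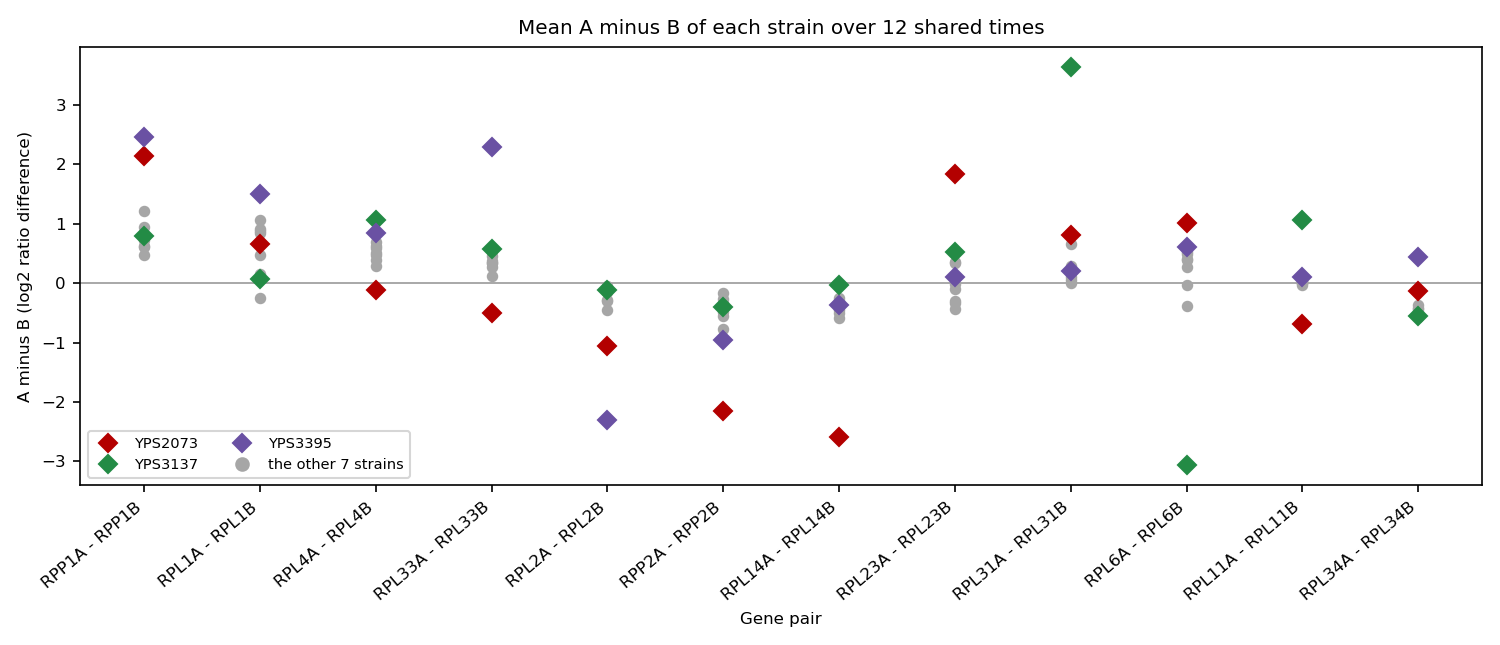
Mean of copy A minus copy B (difference of log2 ratios) over the 12 shared times for 12 pairs, 1 point per strain; diamonds mark YPS2073, YPS3137 and YPS3395 and grey circles the other 7 strains. RPL14 and RPP2 have YPS2073 lowest, RPL33 and RPP1 have YPS3395 highest, and RPL6 and RPL31 have YPS3137 at -3.06 and 3.64.

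Other genes of the pathway were set beside the 81. Of 58 small subunit genes 50 were higher and 1 lower in YPS2073 (median 0.78, RPS13 by 2.07), 35 higher and 6 lower in YPS3395 (median 0.44, RPS18B by 1.81) and 0 higher and 23 lower in YPS2067 (median -0.33). Of 34 mitochondrial large subunit genes, 17 were higher and 0 lower in YPS2073 (median 0.16), and 1 was higher and 15 were lower in YPS3395 (median -0.13). Among 38 assembly factors 5 were higher and 3 lower in YPS2073 (median 0.01; MRT4 by 0.54, SDA1 by -0.47) and 2 were higher and 5 lower in YPS3395, where RLP7 was 1.02 lower. Of 12 genes that control transcription of ribosomal protein genes 1 was higher and 1 lower in YPS2073, HMO1 by 0.33 and SFP1 by -0.27. The stress genes had 2 higher and 1 lower of 18 in YPS2073 (median -0.02) and 8 higher and 0 lower in YPS183 (median 0.31).

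The genes most like the 81 were found by the correlation, over all samples with each strain's mean removed, with the mean of the 81. Samples of a strain share its culture, so these values are a description. Among the 81 themselves the correlation had a median of 0.60 and ran from 0.03 to 0.82 with RPL24B the highest, each gene being part of the mean. The small subunit genes had a median of 0.58, and 6033 other genes a median of -0.01. Outside both lists the highest were SEC6 (0.71), ARO2 (0.69), SOD1 (0.66), COX9 (0.64), COX12 (0.62), CLB5 (0.60), GUK1 (0.60), YBR191WA (0.60), CAF20 (0.59) and DAL5 (0.58).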

How the data were processed

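Each sample was hybridised against the common reference on 2-colour spotted oligonucleotide arrays, per the labels' protocols. The deposited table holds log ratios, read here as log2, for which the authors made 1 column per sample by combining each sample's 1 to 5 arrays and dye orientations, per the labels; 8 samples rest on 1 array. The log base and how arrays were combined and normalized are not given in the sources used here, nor is the filtering. The direction, sample over reference, is likely and not stated, and the centring is known only from sample medians over all genes of -0.066 to 0.039. All sample columns mapped to samples by strain and time, 7 further columns matched none and were not used, and no value was missing. Array number limits precision, and signal over background was not analysed here.

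Gene identifiers were named through the RefSeq table of assembly R64; of the 81 members 73 matched directly and 8 after a hyphen was restored. The series matrix table held 6161 of the 6172 genes, all 81 members among them, with identical values. All tests were run with limma 3.58.1 (R 4.3.3), and p-values were adjusted by Benjamini-Hochberg over all genes (over 61 pairs for copies) and a threshold of 0.05. Levels and time courses came from 1 fit with a mean for each strain and, for each, its own natural cubic spline over time (7 degrees of freedom). Early, middle and late times were compared with strain as a block, and levels against the reference on 1 mean per strain. Python 3.11.15 was used for the rest. On simulated data of 6172 genes, a level difference of 1 in YPS2067 was recovered for 98.5% of 200 changed genes, one of 0.5 for 89.5%, and a change at 24 min of 1 for 92% and of 0.5 for 57%. For time courses, a wave with a peak-to-trough size of 0.5 in YPS2067 was recovered for 4.5%, one of size 1 for 78% and one of size 2 for 93.5%. In the measured data the median change of the 81 genes at 24 min ran from -0.49 in YPS2055 to 0.87 in YPS2073. Their median SD over samples ran from 0.32 in YPS2066 to 0.68 in YPS2073. Whether the recovery rates hold with such differences between strains was not tested.

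Alternatives covered scaling, sample weights, sampling sets, spline flexibility, array prints, dye orientations, a size of at least 1, the comparison strain and leaving out strains or times. Named genes follow a rule: the extremes of each comparison, 20 fixed genes and the pairs with the largest range. Members, lists and tests were chosen with earlier results of these data known. One member enters the counts and medians and is not reported here by itself. A planned search of promoter sequences was not run.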

Additional observations from a re-analysis of the deposited data

Results flagged for a closer look

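For 71 values, 1 per strain, the most extreme strain was checked for a wide gap to the next one. In 32 of them the gap was wide by Dixon's criterion. Chance alone gives such a gap in about 1 in 20 values not picked for their size, but these genes and pairs were named as extremes or for their range over strains, so that rate does not apply here. Of the 32, 17 were in YPS2073, 7 in YPS3137, 6 in YPS3395 and 2 in YPS2067.

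At 24 min against 0 min YPS2073 stood apart. The median of the 81 genes changed by 0.87 there, against 0.23 in the next strain. This comparison crosses from set A to set B, and at 48 min, within set A, the median change in YPS2073 was 0.17. The values in YPS2073 were 3.79 for RPL23A, 3.02 for RPL4B, 2.82 for RPL14B, 2.81 for RPL41A, 2.53 for RPP2B, 1.68 for RPL37B, 1.29 for RPL29, 1.13 for RPL39 and 0.84 for RPL36B. At 48 min against 0 min RPL23A (2.65) and RPL12B (2.52) stood apart in YPS2073, and RPL31B (-2.98) and RPL6A (-2.49) in YPS3137. In the comparison of late and early times YPS2067 stood apart by its median of -0.87 and by RPL24B (-0.65), and YPS3137 by RPL31B (-2.89). The change from early to late was lower for 18 members in YPS2067 than in the other S. cerevisiae strains, by a limma test of the difference itself. That test was added after seeing the data, uses the same samples and rests on 1 culture per strain.

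In mean level over the 12 shared times, RPL14B (3.22) and RPL1A (2.38) stood apart in YPS2073, RPL33A (2.16), RPL3 (-1.07) and RPL2A (-1.51) in YPS3395, and RPL31B (-3.14) in YPS3137. In copy A minus copy B, the strain means that stood apart were -2.58 for RPL14, -2.15 for RPP2 and 1.84 for RPL23 in YPS2073, 2.29 for RPL33, 0.44 for RPL34 and -2.30 for RPL2 in YPS3395, and 3.64 for RPL31, -3.06 for RPL6 and 1.06 for RPL11 in YPS3137. All but 1 of the samples of YPS2073 and 9 of 16 of YPS3137 had arrays with older prints, while YPS3395 and YPS2067 had none. The part of the prints in these gaps was not tested.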

How the results depend on the processing

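The median level difference of the 81 genes kept its sign in YPS183, YPS2067, YPS2073 and YPS3395 under each alternative run. The cause of the other changes below was not tested, and shares over all genes were not computed for the alternatives. After quantile normalization 18 members varied over time in YPS2067 and 4 in YPS2073, 3 were lower at 24 min, 5 higher late and 0 below the reference. With sample weights 61 were lower in YPS2067 and 56 and 63 varied in YPS2055 and YPS2067; with 1 weight per strain, added after seeing the data, these were 59, 40 and 61, and 8 varied in YPS2073. With a term for the sampling set 3, 21 and 31 varied in YPS2055, YPS2067 and YPS2073, and with 5 spline degrees of freedom 14 in YPS2067. On 2007 prints alone 21 were lower in YPS183, and 5, 35 and 36 varied in YPS2055, YPS2067 and YPS3395; over strains on such prints 5 were lower at 24 min, 1 lower at 48 min, 2 higher late and 0 below the reference, which was also 0 with medians over times. Asking for a size of at least 1 left 0 lower in YPS183 and YPS2067, 36 higher in YPS2073, 15 higher and 2 lower in YPS3395 and 0 higher late.

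In set A alone 17 were lower in YPS183 and 5 in YPS2067. In set B alone 15 were lower in YPS183, 30 higher in YPS3395 and the median in YPS2073 was 1.45, and in YPS3137 RPL41A (-0.14), RPL31B (0.046) and RPL6A (0.084) reversed; these fits use fewer samples. Against YPS183 alone the medians were 0.11 in YPS2060, 0.23 in YPS2066, 0.034 in YPS3060 and 0.22 in YPS3137, 2 members were lower in YPS2067 and 5 in YPS3395. Without the strain as a replicate block 3 members were higher late; no other pairing of samples was used, and the single culture per strain has no replicate number.

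Leaving out 1 strain at a time gave medians of -0.084 to 0.036 at 24 min, with 0 to 9 lower (9 without YPS2073), of -0.020 to 0.11 at 48 min with 0 called, and of 0.20 to 0.39 late with 5 to 35 higher (35 without YPS2067, 5 without YPS2055). Against the reference 31 to 40 were higher and 0 to 2 lower, and 6 to 13 pairs passed. Leaving out 1 time at a time gave medians of -0.26 to -0.18 in YPS183, 0.11 to 0.20 in YPS2055, -0.15 to -0.11 in YPS2060, -0.087 to -0.0080 in YPS2066, -0.41 to -0.28 in YPS2067, 0.86 to 1.01 in YPS2073, -0.12 to -0.077 in YPS2079, -0.25 to -0.20 in YPS3060, -0.022 to 0.026 in YPS3137 and 0.46 to 0.56 in YPS3395. Counts ran over 22 to 33 lower in YPS183, 12 to 45 lower in YPS2067, 72 to 75 higher in YPS2073, and 48 to 51 higher and 9 to 10 lower in YPS3395. Members varying over time ran over 0 to 1 in YPS2055, 2 to 7 in YPS2067, 17 to 31 in YPS2073 and 15 to 28 in YPS3395, and pairs over 23 to 27 in YPS2073, 6 to 12 in YPS3137 and 17 to 20 in YPS3395.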
